A study of Danio rerio with 4 samples.

Results

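The genes described here encode the respiratory chain and the ATP synthase of mitochondria. They were chosen by name, as rows of the count table whose gene symbol starts with the stem of a subunit of complexes I to V, with at least 10 counts summed over all libraries. The stems matched 107 rows, and 87 of them, out of 12123 genes with a count, reached that minimum. Of the 87 genes, 74 are nuclear-encoded and 13 lie on the mitochondrial genome.

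RNA was measured in 2 libraries from ventral and 2 libraries from dorsal endothelial cells of the zebrafish posterior cardinal vein, which drains the trunk, at 24 hours post fertilization. All embryos carried Tg(fli1:gal4;uasKaede), in which the endothelial gene fli1 drives Kaede, a green fluorescent protein that becomes red when lit, and no group lacked the transgene. Red cells from the lit side of the vein were sorted by FACS, with 6 embryos per group. Nothing in the labels says that each library came from its own pool of animals. The p-values below therefore reflect the spread between libraries, which may be technical.

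The respiratory chain passes electrons from NADH and succinate to oxygen and pumps protons across the inner mitochondrial membrane. Complex I oxidises NADH, complex II oxidises succinate, complex III hands electrons from ubiquinol to cytochrome c, and complex IV reduces oxygen. Complex V, the ATP synthase, uses the proton gradient to make ATP. Complexes I, III, IV and V are built from subunits of both genomes, while complex II is encoded in the nucleus alone. Endothelial cells are known for a strong reliance on glycolysis, and young red blood cells carry mitochondria that they need to make heme.

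The depth was 108405 and 79527 gene counts for the ventral pair, against 115876 and 51376 for dorsal libraries 1 and 2. The check of the labelled cell type was mixed. Of 17 endothelial markers listed, 5 matched no row. The 12 matched rows summed to 1494 and 1257 CPM (counts per 1000000 gene counts) in the ventral pair, against 371 and 526 CPM in the dorsal pair. Both ventral libraries lay above both dorsal ones for 7 of the 12 rows and below for 0. Among all genes tested for a difference, the shares were 19.4% above and 19.5% below. Only 4 of the 12 rows were themselves tested, and the others had few counts. The largest row, stab2, gave 304 and 377 CPM in ventral libraries, against 8.63 and 117 CPM in dorsal ones. FLI1 gave 83.0 and 88.0 CPM against 0 and 97.3 CPM, and cdh5 gave 18.5 and 12.6 CPM against 34.5 and 0 CPM. ERG was at 0 in all libraries and ESAM at 0 in both dorsal libraries. The erythroid list lay far above the endothelial one. Its members without the globins near the counting ceiling summed to 7306 and 7155 CPM in ventral libraries, against 10157 and 7961 CPM in dorsal ones. Epidermal markers summed to 3598 and 1471 CPM in ventral libraries, against 613 and 993 CPM in dorsal ones. Of these, cyt1l with 65 counts, krt4 with 58, cldni with 14, and krt5, cyt1 and TP63 with 2 each had counts in ventral library 1 only. In the other libraries the whole sum came from krt8, krt18a.1, epcam and pfn1, so there it is not read as epidermal RNA. Skeletal muscle markers gave 2 to 4 counts per library, and myeloid markers gave 21 counts in dorsal library 2 and 2 to 9 in the others. The libraries thus hold RNA of several cell types, and the part of each in the values below was not tested.

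Respiratory chain transcripts made up about the same share of all gene counts on both sides of the vein. The 87 genes together held 50809 and 47896 CPM in ventral libraries 1 and 2, against 47275 and 47357 CPM in dorsal libraries 1 and 2. Ventral library 1 was highest, and both ventral libraries lay above both dorsal ones by a small margin. The means were 49353 ± 2060 CPM in ventral libraries, against 47316 ± 58.0 CPM in dorsal libraries (SD, n = 2 each), a log2 ratio of 0.061. The totals of the dorsal libraries nearly coincided although their parts did not.

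Nuclear-encoded genes summed to 15793 and 17428 CPM in the ventral pair, against 18822 and 13703 CPM in the dorsal pair. The dorsal libraries held both the highest and the lowest value, so the sides overlapped. The means were 16610 ± 1156 CPM in ventral libraries, against 16262 ± 3620 CPM in dorsal ones (SD, n = 2 each), a log2 ratio of 0.031. Mitochondrially encoded genes summed to 35017 and 30468 CPM in the ventral pair, against 28453 and 33654 CPM in the dorsal pair. Here too the sides overlapped, and dorsal library 1, highest in nuclear transcripts, was lowest in mitochondrial ones. The means were 32742 ± 3217 CPM in ventral libraries, against 31053 ± 3678 CPM in dorsal ones (SD, n = 2 each), a log2 ratio of 0.076.

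**Figure D1:**
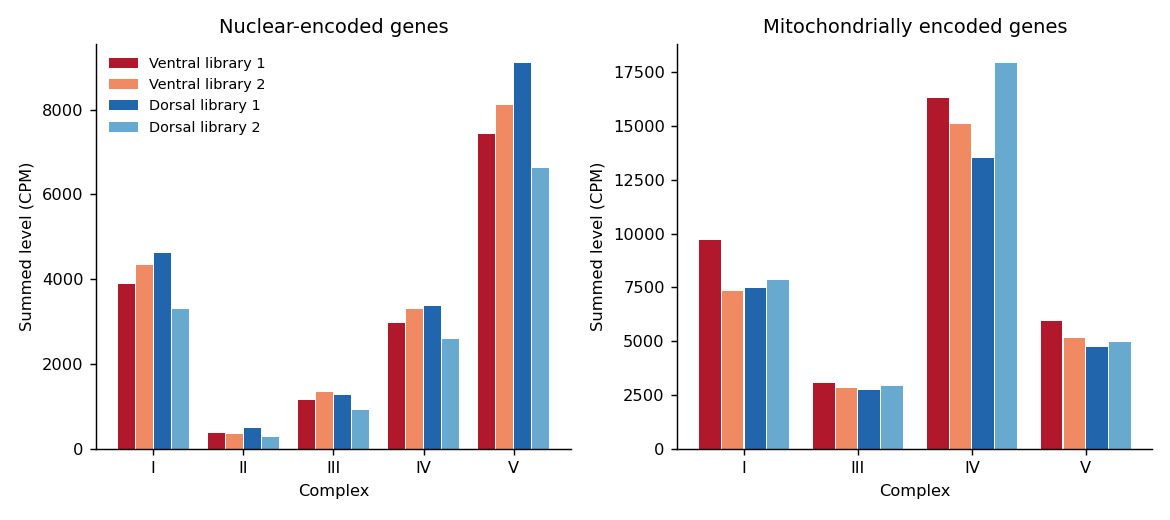
Summed level of respiratory chain genes in CPM (vertical axes, starting at 0) for each complex (horizontal axes) in the 4 libraries, with nuclear-encoded genes in the left panel and mitochondrially encoded genes in the right panel. Dorsal library 2 is lowest in each nuclear sum. In the counts as deposited, which are plotted, it is highest in the mitochondrial sum of complex IV, at 17927 CPM.

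In the counts as deposited, the balance of the genomes therefore varied more between the dorsal libraries than between the sides. Mitochondrially encoded counts per nuclear-encoded count of the chain were 2.22 and 1.75 in the ventral pair, against 1.51 and 2.46 in the dorsal ones. Both ventral values lay between the dorsal ones. The means were 1.98 ± 0.332 in ventral libraries, against 1.98 ± 0.668 in dorsal libraries (SD, n = 2 each). No gene or spike-in exceeded 1024 counts, the number of distinct identifiers of 5 bases, so that counts that come near it understate the number of molecules. With a correction for repeated identifiers the ratios were 3.002 and 2.08 in ventral libraries, against 1.93 and 2.78 in dorsal libraries, which again overlapped. Ventral library 1 was then highest, and the SD was 0.656 in ventral libraries, against 0.605 in dorsal ones. The corrected mitochondrially encoded share of gene counts was 3.25% and 2.60% in ventral libraries, against 2.48% and 2.63% in dorsal libraries. The wider spread of the dorsal pair thus held only for the deposited counts. By complex, complex IV had the most mitochondrial counts per nuclear count, at 5.49 and 4.59 in ventral libraries, against 4.01 and 6.93 in dorsal libraries. Complex V had the fewest, at 0.804 and 0.637 in ventral libraries, against 0.522 and 0.750 in dorsal libraries.

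The sums depend on what the libraries are scaled to. Gene counts per count of the ERCC spike-in RNAs were 11.2 and 9.68 in ventral libraries, against 12.5 and 4.68 in dorsal libraries. Per 1000 spike-in counts, nuclear-encoded genes gave 177 and 169 counts in ventral libraries, against 235 and 64.2 in dorsal libraries. Mitochondrially encoded genes gave 392 and 295 counts in ventral libraries, against 356 and 158 in dorsal ones per 1000 spike-in counts. Dorsal library 2 was lowest on this scale in both genomes. Fewer cells and less RNA per cell cannot be told apart in such bulk libraries.

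No respiratory chain gene was found to differ between ventral and dorsal cells beyond the spread of the libraries. Of the 87 genes, 62 passed the expression filter of edgeR, 51 nuclear and 11 mitochondrial. In edgeR's quasi-likelihood F test with Benjamini-Hochberg adjustment over all 1399 genes tested, 0 of the 62 were called in either direction. Over all tested genes, 0.429% were called higher and 0% lower. At so low a share, 0 of the 62 does not set the chain apart from other genes. The smallest adjusted p among the 62 was 0.547 and the smallest unadjusted p 0.102. At an unadjusted p under 0.05 there were 0 of the 62 with edgeR, against 7.51% of all tested genes higher and 4.65% lower. DESeq2 and voom also gave 0 of the 62 at that threshold, and their shares over all genes are not given here. After adjustment these tools called 0 of all 1399 genes, so nothing about the 62 is read from them.

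**Figure D2:**
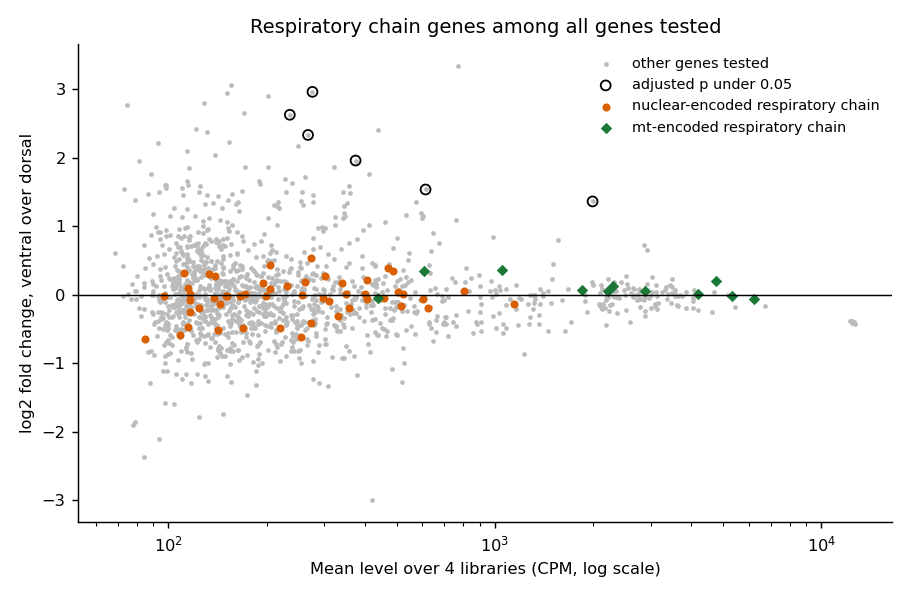
Fitted log2 fold change, ventral over dorsal (vertical axis), against the mean level over all libraries in CPM on a log scale (horizontal axis) for the 1399 genes tested. The 62 respiratory chain genes, coloured by genome, lie between -0.65 and 0.54, and the 6 genes with an adjusted p under 0.05, circled, are not among them.

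The fitted fold changes were small as well as unresolved. Their median over the 62 genes was -0.010 on the log2 scale, against -0.033 over all genes tested. The quartiles were -0.12 and 0.14 for the 62 genes, and -0.34 and 0.26 for all genes tested. Of the 62 genes, 30 had a value above 0 and 32 a value below 0. Signs here and below are on the TMM scale, since scaling to the spike-ins moved the median of all genes tested to 0.22. For 42 of the 62, or 67.7%, the interval of 2 standard errors lay between -1 and 1, so that a change of 1 log2 unit fell outside it, against 34.3% of all genes tested. For the other genes a change of that size lies within the interval in at least 1 direction. The standard errors were not fitted directly but taken as the absolute fold change divided by the square root of the test's F. They can be unstable where a fold is near 0. ARPC1A, at 165 CPM, had -0.0009 ± 0.82, against 0.033 ± 0.44 for SF1 at 171 CPM. The standard error also depends on the level of a gene, and the part of either in this contrast was not tested.

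**Figure D3:**
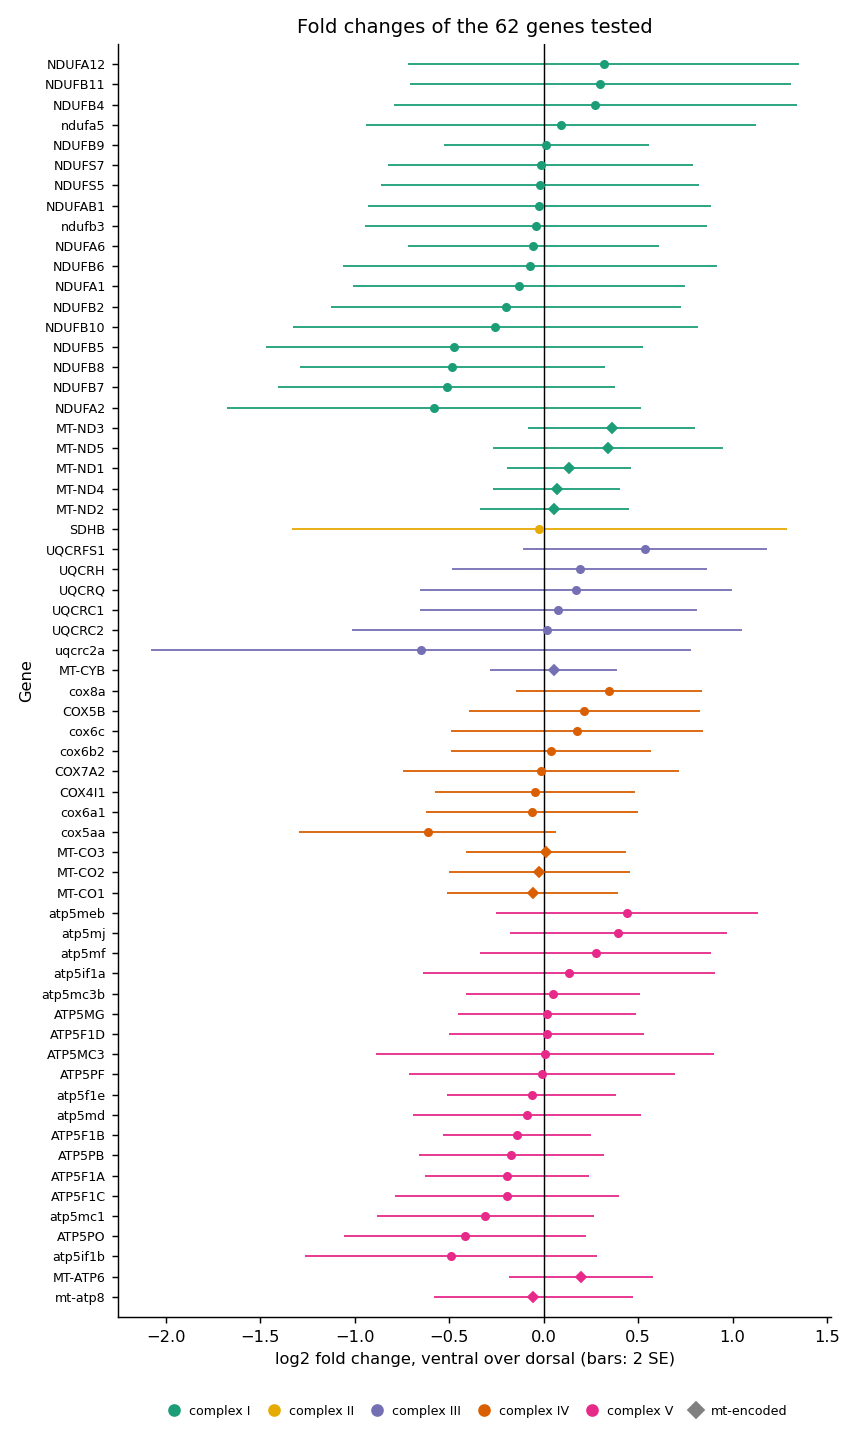
Fitted log2 fold change, ventral over dorsal (horizontal axis), with bars of 2 standard errors, for each of the 62 genes tested, grouped by complex from I at the top to V at the bottom. The bar of every gene in the plot crosses 0, from uqcrc2a at -0.65 to UQCRFS1 at 0.54.

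Both ventral libraries lay above both dorsal ones, in CPM, for 5 of the 62 genes, or 8.06%, against 19.4% of all genes tested. Both lay below for 5, or 8.06%, against 19.5% of all genes tested. The 5 higher genes were MT-ATP6, MT-ND3, cox8a, UQCRFS1 and atp5meb, and the 5 lower ones were cox5aa, NDUFB8, NDUFB7, NDUFB5 and NDUFA2. The higher ones come from several complexes and both genomes. The lower ones are all nuclear-encoded, cox5aa of complex IV and the others of complex I. None of these genes, higher or lower, passed the test.

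The nuclear-encoded genes mostly shifted in the same direction between the dorsal libraries. When their counts in 2 libraries were compared after allowing for 1 common factor, the chi-square per degree of freedom was 0.928 for ventral library 1 against 2 and 0.897 for dorsal library 1 against 2, over 74 genes. A value near 1 is what counting noise alone gives. Between the summed ventral and the summed dorsal libraries it was 0.819. For the 13 mitochondrially encoded genes the values were 1.52, 2.25 and 1.31, and for all tested genes below the ceiling they were 1.92, 2.07 and 3.83. For the 74 nuclear-encoded genes no change of proportions beyond counting noise was seen, within or between the sides. At low counts the measure stays near 1 even if proportions change, so constant proportions are not shown. The 74 include genes below the expression filter, with few counts per library, whereas the set of all tested genes does not. The common factor differed, with summed CPM 1.37-fold higher in dorsal library 1 than in dorsal library 2. Of the 51 tested nuclear-encoded genes, 42 were lower in dorsal library 2 than in dorsal library 1, or 82.4%, against 63.8% of all genes tested. Of the 11 tested mitochondrially encoded genes, 3 were. Dorsal library 2 had the fewest gene counts and the largest share of them in the 9 genes near the ceiling, 17.2% against 7.93% in dorsal library 1, and the part of this in the shift was not tested.

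Levels differed widely between complexes. CEL-Seq counts the 3' end of each transcript, so counts were compared between genes without division by length. The median level of a nuclear-encoded gene, averaged over all libraries, was 109 CPM for the 35 genes of complex I, 85.0 CPM for the 5 of complex II and 195 CPM for the 7 of complex III. It was 406 CPM for the 8 genes of complex IV and 331 CPM for the 19 of complex V. The mitochondrially encoded genes ran from 29.9 to 6221 CPM, with a median of 2226 CPM.

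**Figure D4:**
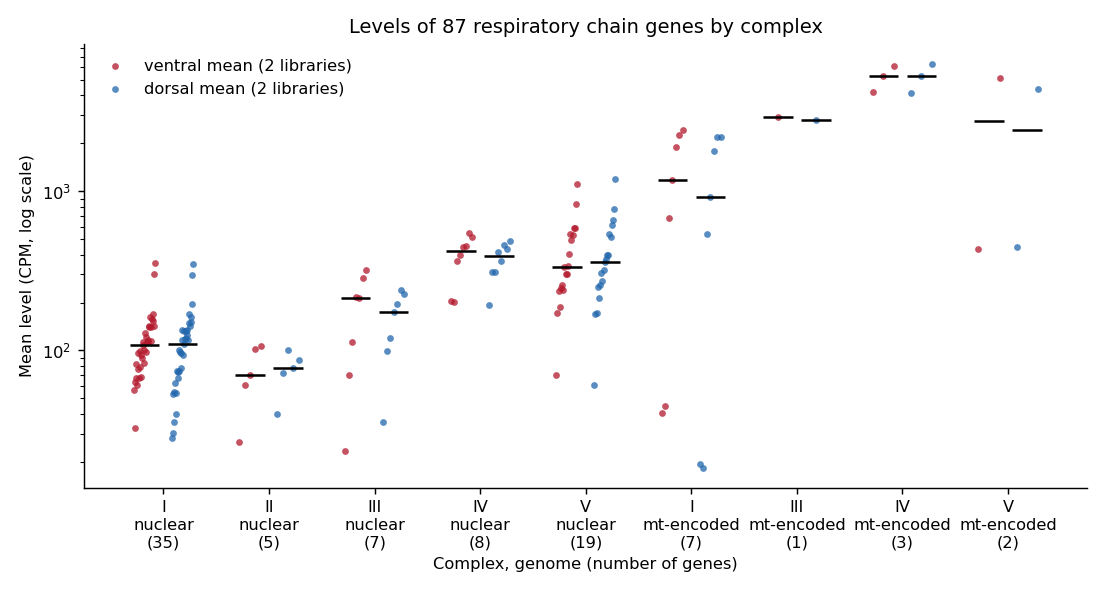
Mean level of each of the 87 genes in CPM on a log scale (vertical axis), by complex and genome (horizontal axis, number of genes in brackets), with ventral means to the left of dorsal means and a line at each median. The ventral and dorsal columns cover similar ranges in each complex, and among nuclear-encoded genes the medians of complexes I and II, 109 and 85.0 CPM, sit below those of complexes IV and V, 406 and 331 CPM.

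Complex V held the most abundant nuclear-encoded transcripts of the chain. Its catalytic head, F1, has the beta subunit ATP5F1B (ENSDARG00000070083), which carries the active sites, at 950 and 1257 CPM in ventral libraries, against 1389 and 993 CPM in dorsal ones. The sides overlapped, with dorsal library 1 highest and ventral library 1 lowest. The alpha subunit gene ATP5F1A (ENSDARG00000010149) gave 609 and 566 CPM in ventral libraries, against 777 and 545 CPM in dorsal ones. The small epsilon subunit gene atp5f1e (ENSDARG00000095897) gave 655 and 528 CPM in ventral libraries, against 682 and 545 CPM in dorsal ones. For these as well the sides overlapped, with dorsal library 1 highest. Summed over the 5 genes of the head and central stalk, the levels were 2943 and 3106 CPM in ventral libraries, against 3728 and 2744 CPM in dorsal ones. The 3 genes of the peripheral stalk, ATP5PB, ATP5PO and ATP5PF, which holds the head still, summed to 932 and 1044 CPM in ventral libraries, against 1277 and 934 CPM in dorsal ones.

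The proton-driven ring of complex V is made of subunit c, which in zebrafish is encoded by several genes with near-identical products. The 3 counted genes were used unevenly. Of 478 counts, atp5mc3b (ENSDARG00000009447) gave 62.3% (exact binomial 95% interval 57.8% to 66.7%, covering counting error only), atp5mc1 25.3% (21.5% to 29.5%) and ATP5MC3 12.3% (9.53% to 15.6%). The counts of atp5mc3b were 83 and 71 in ventral libraries, against 115 and 29 in dorsal ones, those of atp5mc1 31 and 25 against 50 and 15, and those of ATP5MC3 13 and 18 against 19 and 9. The order atp5mc3b, atp5mc1, ATP5MC3 held in each library. Reads shared between such related genes cannot be traced in the table, so these shares are uncertain.

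Other membrane subunits of complex V gave the 2 highest fitted values of the complex. The gene atp5meb (ENSDARG00000068940), for subunit e, which helps synthase dimers form, gave 27 and 18 counts in ventral libraries, against 22 and 8 counts in dorsal ones, or 238 ± 16.1 against 173 ± 24.1 CPM (SD, n = 2 each). Its log2 fold change was 0.44 ± 0.35 (SE), at adjusted p = 0.748 (edgeR). The small membrane subunit gene atp5mj (ENSDARG00000092873) gave 45 and 53 counts in ventral libraries, against 52 and 18 in dorsal ones, a log2 fold change of 0.40 ± 0.29 (SE; adjusted p = 0.707, edgeR). Its sides overlapped in CPM. The paralogue atp5mea gave 22 of the 97 counts of the pair with atp5meb, or 22.7% (exact binomial 95% interval 14.8% to 32.3%).

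IF1, the inhibitor of the synthase, stops ATP hydrolysis when the proton gradient is lost. Summed over all libraries, its counts came from 2 genes in about equal amounts. The gene atp5if1a gave 89 and atp5if1b 84 of their 173 counts, 51.5% and 48.5%. The exact binomial 95% interval for atp5if1a, 43.7% to 59.1%, covers counting error only and included equal use. By library the share of atp5if1a was 58.2% and 55.2% in ventral libraries, against 45.95% and 46.7% in dorsal ones. Whether this share differs between the sides was not tested. The gene atp5if1b (ENSDARG00000044092) had the lowest fitted value of complex V, at -0.49 ± 0.39 (SE; adjusted p = 0.748, edgeR), with 23 and 13 counts in ventral libraries, against 40 and 8 in dorsal ones. The means were 188 ± 34.4 CPM in ventral libraries, against 251 ± 134 CPM in dorsal ones (SD, n = 2 each), so the dorsal spread exceeded the difference. Without dorsal library 1 its value was 0.16.

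The nuclear-encoded genes of complex IV ran from 199 to 505 CPM over all libraries. The leading genes were cox6b2 (ENSDARG00000037860), cox8a (ENSDARG00000095273), COX4I1 (ENSDARG00000032970) and COX5B (ENSDARG00000015978), at 505, 488, 457 and 407 CPM over all libraries. For subunit 6B, cox6b2 gave 535 and 503 CPM in ventral libraries, against 630 and 350 CPM in dorsal ones. COX4I1, for subunit 4, gave 378 and 528 CPM against 475 and 448 CPM, and COX5B, for the zinc-binding subunit 5B, gave 452 and 440 CPM against 501 and 234 CPM. The sides overlapped in all of these. The gene cox8a encodes a small membrane subunit and gave 61 and 42 counts in ventral libraries, against 48 and 23 in dorsal ones. The sides did not overlap in CPM, with means of 545 ± 24.5 CPM in ventral libraries, against 431 ± 23.7 CPM in dorsal ones (SD, n = 2 each), and a log2 fold change of 0.35 ± 0.25 (SE; adjusted p = 0.699, edgeR). In the other direction cox5aa (ENSDARG00000088383), for subunit 5A, gave 26 and 13 counts in ventral libraries, against 40 and 14 in dorsal ones. Its means were 202 ± 54.0 CPM in ventral libraries, against 309 ± 51.4 CPM in dorsal libraries (SD, n = 2 each), and its log2 fold change was -0.61 ± 0.34 (SE; adjusted p = 0.547, edgeR). This was the smallest p of all 62 genes.

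Where complex IV subunits exist in several isoforms, 1 gene gave most counts. These families were looked at after their values were seen. COX4I1, the isoform of subunit 4 known from mammals as the general one, gave 161 of 162 counts, or 99.4%, with a lower bound of 96.6% in the exact binomial 95% interval, and COX4I2, known from mammals as the isoform of lung and low oxygen, gave 1. COX7A2, which mammals use in most tissues, gave 74 of 83 counts of its family, and cox7a1, the muscle form of mammals, gave 1. The related COX7A2L, which in mammals takes part in joining complexes III and IV, gave 8. The gene cox6b2 gave 189 counts and cox6b1 gave 5, of which 0 came from dorsal libraries. A second row named COX5B gave 2 counts against 154 in the first. The binomial bound covers counting error only. Reads shared between related genes cannot be traced here either, and whether the table captures the rows near 0 was not tested, so these shares are uncertain.

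Complex III had the highest fitted value of the chain. UQCRFS1 (ENSDARG00000007745), the Rieske iron-sulphur protein that takes electrons from ubiquinol, gave 37 and 24 counts in ventral libraries, against 25 and 12 in dorsal ones. The means were 322 ± 28.0 CPM in ventral libraries, against 225 ± 12.6 CPM in dorsal libraries (SD, n = 2 each), and the libraries of the sides did not overlap. The log2 fold change was 0.54 ± 0.32 (SE), an interval of -0.11 to 1.18 (2 SE), at adjusted p = 0.601 (edgeR). The hinge protein gene UQCRH, the core protein gene UQCRC1 and the small subunit gene UQCRQ followed at 263, 204 and 195 CPM over all libraries. UQCRH gave 258 and 314 CPM in ventral libraries, against 302 and 175 CPM in dorsal ones, UQCRC1 gave 175 and 252 CPM against 216 and 175 CPM, and UQCRQ gave 194 and 239 CPM against 250 and 97.3 CPM. Dorsal library 2 was lowest in each of these, for UQCRC1 by a trivial margin.

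The lowest fitted value of the chain also belonged to complex III. The gene uqcrc2a (ENSDARG00000014794) gave 3 and 9 counts in ventral libraries, against 14 and 4 in dorsal ones, a log2 fold change of -0.65 ± 0.71 (SE; adjusted p = 0.860, edgeR). The interval of -2.08 to 0.78 (2 SE) shows how little these counts can resolve. It and UQCRC2, the paralogous core protein gene, gave 30 and 41 of their 71 counts. The share of uqcrc2a over all libraries was 42.3% (exact binomial 95% interval 30.6% to 54.6%, covering counting error only). By library it was 16.67% and 56.25% in ventral libraries, against 53.85% and 36.36% in dorsal ones. With such a spread, equal use is not read from the interval.

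Complex I, the largest of the complexes, had 42 of the 87 genes and the lowest levels after complex II. Its most abundant nuclear-encoded genes were the accessory subunit genes NDUFB9 (ENSDARG00000041314) and NDUFA6 (ENSDARG00000038028), at 350 and 298 CPM over all libraries. NDUFB9 gave 341 and 365 CPM in ventral libraries, against 363 and 331 CPM in dorsal ones, a narrow range that the sides shared. NDUFA6 gave 286 and 314 CPM in ventral libraries, against 397 and 195 CPM in dorsal ones, with the sides overlapping. NDUFB8, of the membrane arm, and NDUFS7, a core subunit with an iron-sulphur cluster, came next at 169 and 166 CPM. NDUFB8 gave 120 and 164 CPM in ventral libraries, against 199 and 195 CPM in dorsal ones, with no overlap, and NDUFS7 gave 138 and 201 CPM against 190 and 136 CPM.

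The 7 nuclear-encoded core subunits of complex I, among which are the carriers of the flavin and the iron-sulphur clusters, summed to 590 and 666 CPM in ventral libraries, against 708 and 428 CPM in dorsal ones. The 28 accessory subunits summed to 3293 and 3659 CPM in ventral libraries, against 3909 and 2881 CPM in dorsal ones. The sides overlapped in both sums. Of the 18 tested nuclear-encoded genes of complex I, 5 had a fitted value above 0 and 13 below, with a median log2 fold change of -0.047 against -0.033 over all genes tested. NDUFA2 (ENSDARG00000021984) and NDUFB7 (ENSDARG00000033789), both accessory subunits, were the lowest, at -0.58 ± 0.55 and -0.51 ± 0.45 (SE), with adjusted p of 0.798 and 0.792 in edgeR's test. NDUFA2 gave 10 and 6 counts in ventral libraries, against 13 and 8 in dorsal ones, and NDUFB7 gave 14 and 8 against 19 and 9. NDUFAB1 and ndufab1b, whose product is the acyl carrier protein of mitochondria, gave 57 and 42 counts.

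Complex II, which also serves the citric acid cycle, had the fewest counts. SDHA, the flavoprotein, gave 9 and 3 counts in ventral libraries, against 10 and 3 in dorsal ones. SDHB (ENSDARG00000075768), the iron-sulphur subunit and the single tested gene of the complex, gave 8 and 11 in ventral libraries, against 18 and 1 in dorsal ones. The low count of SDHB in dorsal library 2 stood apart from the other values. The membrane anchor genes SDHC and SDHD were as low. SDHC gave 10 and 9 counts in ventral libraries, against 9 and 4 in dorsal ones, and SDHD gave 11 and 3 against 12 and 5. The assembly factor gene SDHAF4, the only assembly factor that reached the count minimum, gave 3 and 2 against 7 and 1. The summed level was 365 ± 18.5 CPM in ventral libraries, against 378 ± 149 CPM in dorsal ones (SD, n = 2 each), so a difference was not detectable at this depth.

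The mitochondrially encoded mRNAs lie close together on 1 circular genome, and in vertebrates they are processed from long shared transcripts. The complex IV core genes MT-CO1, MT-CO2 and MT-CO3, which hold the sites of electron transfer and oxygen entry, and MT-ATP6, the proton channel of complex V, made up 62.2% and 65.3% of mitochondrially encoded counts in ventral libraries, against 62.3% and 66.9% in dorsal libraries. MT-CO1 (ENSDARG00000063905) was the most abundant in each library, with 707 and 460 counts in ventral libraries, against 641 and 362 in dorsal ones. MT-CO2, MT-ATP6 and MT-CO3 took the next places in an order that changed between libraries, so they do not have a fixed rank. MT-CYB, the cytochrome b of complex III, was in the fifth place in each library, with 331 and 226 counts in ventral libraries, against 316 and 149 in dorsal ones.

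**Figure D5:**
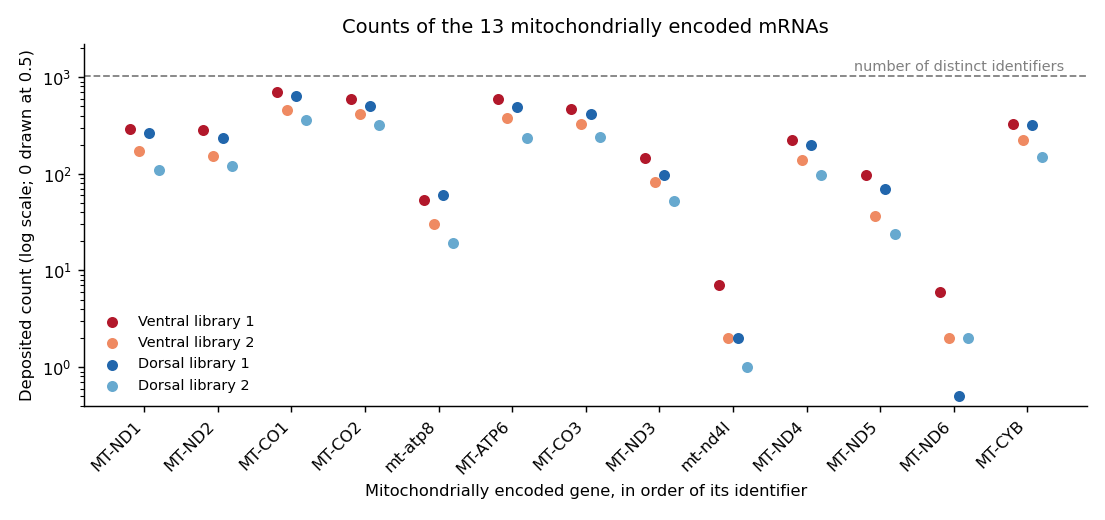
Deposited counts of the 13 mitochondrially encoded mRNAs on a log scale (vertical axis, a count of 0 drawn at 0.5), in the order of their identifiers (horizontal axis), for the 4 libraries, with a dashed line at 1024. The profile has a similar shape in each library, with some changes of rank, from MT-CO1 at 707 counts in ventral library 1 down to mt-nd4l and MT-ND6 at 7 counts or fewer.

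The complex I genes of the mitochondrial genome were lower. MT-ND1 gave 293 and 170 counts in ventral libraries, against 262 and 109 in dorsal ones, and MT-ND2 gave 284 and 153 against 237 and 119. MT-ND4 gave 221 and 138 counts in ventral libraries, against 198 and 97 in dorsal ones. These membrane subunits take part in proton pumping. MT-ND5, another of them, gave 97 and 37 counts in ventral libraries, against 70 and 24 in dorsal ones.

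The lowest counts belonged to mt-atp8, mt-nd4l and MT-ND6. The gene mt-atp8 gave 53 and 30 counts in ventral libraries, against 60 and 19 in dorsal ones, while its neighbour MT-ATP6 gave 593 and 381 against 490 and 236. The gene mt-nd4l gave 7 and 2 counts in ventral libraries, against 2 and 1 in dorsal ones, while its neighbour MT-ND4 gave at least 97 in each library. In vertebrates each of these pairs is carried on 1 mRNA with overlapping reading frames, the second gene of the pair being nearer the 3' end, so counts of the first are uncertain. MT-ND6, which in mammals is encoded on the other strand and lacks a long poly(A) tail, gave 6 and 2 counts in ventral libraries, against 0 and 2 in dorsal ones. The count of 0 in dorsal library 1 allows up to 25.9 CPM, taking 3 counts as the limit. How strand was treated when reads were counted is not given in any source used here.

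Fitted values of the 11 tested mitochondrially encoded genes lay between -0.058 and 0.36 on the log2 scale. Of the 11, 8 were above 0, against 46.1% of all genes tested. The median was 0.056, against -0.033 over all genes tested and -0.020 for the 51 tested nuclear-encoded genes. MT-ND3 (ENSDARG00000063914) had the highest, 0.36 ± 0.22 (SE; adjusted p = 0.613, edgeR), with 144 and 82 counts in ventral libraries, against 97 and 52 in dorsal ones, or 1180 ± 210 against 925 ± 124 CPM (SD, n = 2 each). MT-ND5 stood at 0.34 ± 0.30 and MT-ATP6 at 0.20 ± 0.19 (SE), with adjusted p of 0.793 and 0.801 in edgeR's test. MT-ND1 stood at 0.13 ± 0.17, MT-ND4 at 0.068 ± 0.17, MT-ND2 at 0.056 ± 0.20, MT-CYB at 0.053 ± 0.17 and MT-CO3 at 0.014 ± 0.21 (SE). Below 0 were MT-CO1 at -0.058 ± 0.23, mt-atp8 at -0.054 ± 0.26 and MT-CO2 at -0.023 ± 0.24 (SE), and the signs of MT-CO1 and MT-CO2 turned with other scalings. The sign of the median of this set also rests on single libraries, since the median was 0.29 without dorsal library 2 and -0.10 without dorsal library 1.

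The 25 genes below the expression filter had 10 to 42 counts in all, and 19 of them belong to complex I. Just inside the minimum of 10 counts were MT-ND6 with 10, UQCRB with 11 and mt-nd4l with 12. Just outside it were the complex I assembly factor gene NDUFAF1 with 9 and COX7A2L and ndufa4b with 8 each. Of the 20 rows that matched by name and did not reach the minimum, 6 had 0 counts in every library.

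Of 8 lists of other genes of mitochondrial energy metabolism, 22 genes were tested and 0 were called in either direction by edgeR, DESeq2 or voom. Over all genes tested, edgeR called 0.429% higher and 0% lower, and DESeq2 and voom called 0. At an unadjusted p under 0.05, 2 of the 22 were lower and 0 higher with edgeR, against 4.65% lower and 7.51% higher among all genes tested, and nothing about the lists is read from so few. From the list of cytochrome c and ubiquinone genes, 3 were tested, 1 above 0 and 2 below. The cytochrome c gene cycsb, which carries electrons from complex III to IV, gave 57 and 37 counts in ventral libraries, against 46 and 17 in dorsal ones, at 0.43 ± 0.25 (SE; adjusted p = 0.585, edgeR). CYC1, the cytochrome c1 of complex III, whose symbol no stem matches, gave 15 and 10 against 15 and 13. COQ8A, needed to make ubiquinone, gave 4 and 5 counts in ventral libraries, against 14 and 10 in dorsal ones, at -1.60 ± 0.64 (SE; unadjusted p = 0.0325, adjusted p = 0.347, edgeR).

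Among carriers and porins, 3 of 3 tested genes were below 0, with a median log2 fold change of -0.42. VDAC2, a channel of the outer mitochondrial membrane, gave 115 and 90 counts in ventral libraries, against 183 and 68 in dorsal ones, at -0.42 ± 0.16 (SE; unadjusted p = 0.0238, adjusted p = 0.308, edgeR). The phosphate carrier gene SLC25A3, which feeds the ATP synthase, gave 72 and 57 against 93 and 29, at -0.014 ± 0.21 (SE). Of the citric acid cycle list, 5 genes were tested, 3 above 0 and 2 below, with a median of 0.14, led by DLST and DLD. Its sum was 1061 and 1396 CPM in ventral libraries, against 1225 and 1109 CPM in dorsal ones. Of the glycolysis list, 2 were tested, ALDOA at -0.43 ± 0.54 and HK1 at -0.40 ± 0.62 (SE). Its sum was 452 and 516 CPM in ventral libraries, against 535 and 467 CPM in dorsal ones. However, 11 of its 26 matched rows had 0 counts in all libraries, as had 7 of the 16 rows of carriers and porins. Whether the table captures these genes was not tested, so the sum is not set against that of the respiratory chain.

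Mitochondrial import genes had 6 tested, 4 above 0 and 2 below, with a median of 0.21, among them the chaperones HSPA9 at 0.26 ± 0.56 and HSPD1 at 0.36 ± 0.41 (SE). Assembly genes had 2 tested, both below 0, and the copper chaperone cox17 gave 14 and 19 counts in ventral libraries, against 33 and 4 in dorsal ones. Of regulators of mitochondrial biogenesis, GABPA alone was tested, at 0.37 ± 0.46 (SE). NRF1, a transcription factor of nuclear respiratory genes, gave 9 and 8 counts in ventral libraries, against 21 and 1 in dorsal ones. Of genes for mitochondrial transcription and replication none was tested, and TFAM, which packs and transcribes mitochondrial DNA, gave 7 and 5 counts in ventral libraries, against 8 and 4 in dorsal ones.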

How the data were processed

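Endothelial RNA of the ventral and dorsal vein was measured by CEL-Seq with ERCC spike-ins and unique molecular identifiers, per the labels' protocols. The submitters' processing notes name CASAVA 1.8, Bowtie2 2.1.0, HTSeq 0.5.4p3 and build Zv9, with no role or order. The values of the table, as deposited, are raw counts for each gene. That they count distinct identifiers of 5 bases is inferred from the highest gene count of 1024. The 5 rows that name no gene held 96.4% to 97.4% of each column and were left out of library sizes and tests. Gene symbols were looked up by Ensembl identifier, and a symbol was found for 20769 of 32434 genes. Marker lists were matched by symbol, or by the symbol without a final a or b. Mitochondrial ribosomal RNAs were not analysed here. No coordinates or sequences are given.

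The ventral-to-dorsal test was made with edgeR 4.0.16 (quasi-likelihood, TMM, filterByExpr, 2-sided, adjusted p threshold 0.05) in R 4.3.3, with 2 residual degrees of freedom. Exact splits of 4 libraries cannot give a p below 0.333. Each SE of a fold change is its absolute value divided by the square root of F. Sums carry no test. DESeq2 1.42.0, voom in limma 3.58.1, other scalings and filters, a correction for repeated identifiers (-K ln(1 - n/K), with K = 1024) and leaving out each library were alternatives. On simulated counts 200 genes were changed, and recovery was taken over the 1443 genes that passed the filter. Among these, edgeR called 88.3% of the 77 changed by 2 log2 units and 34.7% of the 95 changed by 1, with 7 false calls. Changed genes that failed the filter are not in these shares. The simulation gave all genes 1 common dispersion and set no ceiling at 1024 counts, so recovery in the real counts may differ.

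The genes and lists were chosen with earlier results of these data known. Genes are named with values if encoded in mitochondria, among the 4 most abundant nuclear genes of a complex, among the 5 highest or lowest fold changes, with an unadjusted p under 0.05, in complex II, or in an isoform family. From the related lists up to 4 genes are named, by level.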

Additional observations from a re-analysis of the deposited data

How the results depend on the processing

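No respiratory chain gene was called under any of the 9 other settings run. There were also 4 fits without 1 library. The fits without 1 library leave 1 library on a side, so only fold changes, their medians and ratios between the sides are given for them. MT-CO2, for example, stood at 0.41 without dorsal library 2 and at -0.35 without dorsal library 1. Over all genes tested, edgeR called 6 higher and 0 lower of 1399, and the same with RLE scaling in place of TMM. It called 14 and 0 with total counts and 0 and 0 with ERCC scaling, each of 1399. Without genes near the ceiling it called 18 and 0 of 1390. Without a filter the calls were 43 and 4 of 12123, and with at least 10 counts in every library 2 and 0 of 636. Corrected identifiers gave 29 and 2 of 1399, and DESeq2 and voom each gave 0 and 0 of 1399. The respiratory chain genes tested were 87 without a filter, 36 with at least 10 counts in every library and 62 in the other settings. Scaling to the ERCC counts moved the median log2 fold of all tested genes to 0.22. It moved the median of tested members to 0.25 and that of mitochondrially encoded members to 0.41, and the log2 ratio of summed CPM to 0.42 for mitochondrially encoded members, 0.38 for complex I, 0.37 for complex III, 0.36 for complex IV and 0.29 for complex V. The ratio for complex III was also 0.059 without genes near the ceiling and 0.19 without MT-CYB, its most abundant gene. With the correction for repeated identifiers the ratio was 0.17 for complexes I and III, -0.013 for II, 0.14 for IV and 0.18 for V. It was 0.20 for mitochondrially encoded and 0.067 for nuclear-encoded members. The fitted value of MT-ATP6 was then 0.36 (adjusted p = 0.399, edgeR). The cause of these shifts, other than the change of scale, was not tested. MT-CO1 turned to 0.016 with total counts, 0.34 with ERCC scaling, 0.013 without a filter, 0.019 with at least 10 counts in every library, 0.094 with corrected identifiers and 0.047 with voom. MT-CO2 turned to 0.056, 0.41, 0.052, 0.058, 0.11 and 0.12 under the same settings, and mt-atp8 to 0.16 with ERCC scaling.

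Leaving out each library in turn, medians of log2 folds lay between -0.10 and 0.29 for mitochondrially encoded members. The log2 ratio of sums lay between -0.18 and 0.28 for nuclear-encoded members, -0.40 and 0.42 for complex II, 0.072 and 0.14 for complex III, -0.12 and 0.16 for complex IV and -0.055 and 0.20 for complex V. The log2 ratio, ventral over dorsal, of mitochondrially encoded per nuclear-encoded counts lay between -0.31 and 0.39. The highest of these values came without dorsal library 2 for the mitochondrial median, complex IV and the per-nuclear ratio, and without dorsal library 1 for the nuclear sum and complexes II, III and V. Single genes ranged from -0.73 to 0.16 (atp5if1b), -0.32 to 0.28 (MT-CO1), -0.35 to 0.41 (MT-CO2), -0.26 to 0.36 (MT-CO3), -0.10 to 0.24 (MT-CYB), -0.051 to 0.32 (MT-ND1), -0.20 to 0.29 (MT-ND2), -0.12 to 0.28 (MT-ND4), -0.22 to 0.75 (MT-ND5) and -0.26 to 0.15 (mt-atp8). The gene uqcrc2a was below the expression filter in 2 of these fits. A side left with 1 library was taken to vary like the other side. No paired analysis was possible because the 2 sides share no library number in the labels, which do not say which libraries belong together. A fit pairing consecutive numbers would be a guess and was not run. Depth limits complex II and most of complex I, where single genes had fewer than 20 counts in most libraries.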
